A study of Mus musculus with 63 samples.

Results

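The neuronal pentraxins are 3 genes, Nptx1, Nptx2 and Nptxr, and their mRNA was followed through single neurons of layer 2/3 of the mouse primary visual cortex (V1). They were picked by symbol from a table of 20179 genes, and all 3 had a row. Every cell came from a wild-type C57BL/6 mouse aged 70 days that was lightly anaesthetised, had its cortex loaded with the calcium dye Cal-520 AM and watched a moving grating. Light-sensitive (LS) cells gave a calcium response to at least 4 of 5 presentations, and non-light-sensitive (NS) cells to at most 1 of 5. The soma was then drawn into a glass pipette and its transcripts were copied over their full length and multiplied with the Smart-seq2 protocol for single cells. All cells of both groups had thus seen the same stimulus under the same anaesthesia, and no cells from unstimulated mice were part of the comparison. There were 46 LS and 17 NS cells, and the filters that the study states, applied here to the deposited values, left 35 LS and 12 NS cells. This is not the set of cells the study analysed, which held more LS cells. The labels name no mouse, so the cells of a group were taken as 1 sample, no test between groups was made, and every SD below is the spread between cells. No molecular identifiers were used, so the intervals given for reads cover counting error only. Intervals for shares of cells treat the cells as independent draws and leave out any likeness of cells from the same mouse.

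Nptx1 and Nptx2 are secreted proteins, and Nptxr is the member of the family that is anchored in the membrane. They assemble into mixed complexes that bind the outer domains of AMPA receptors, the main fast glutamate receptors, and gather them at excitatory synapses. In the cortex they are best known as products of excitatory neurons that act on synapses onto parvalbumin interneurons. Nptx2, also called Narp, was first described as a gene that neuronal activity switches on, as Fos is, although Fos mRNA rises and falls faster.

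In the GRCm38 assembly, Nptx1 (ENSMUSG00000025582) lies on the minus strand of chromosome 11 from 119538719 to 119547753 and Nptx2 (ENSMUSG00000059991) on the plus strand of chromosome 5 from 144545902 to 144557478. Nptxr (ENSMUSG00000022421) lies on the minus strand of chromosome 15 from 79786351 to 79804766. The annotated exons add up to 5217 bp for Nptx1, 2536 bp for Nptx2 and 5170 bp for Nptxr. Of the exon bases of Nptxr, 890 (17.2%) also belong to the overlapping gene Npcd. Whether reads on those bases were counted for either gene is not given in the sources used here, so the level of Nptxr is less certain than those of Nptx1 and Nptx2.

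The LS cells held 358896 to 2508039 reads (median 869983) and the NS cells 146747 to 882294 (median 314979). By their markers, 30 of the 35 LS cells were glutamate-marked, meaning more FPKM of Slc17a7 (the vesicular glutamate transporter) and Neurod2 than of the GABA-synthesis genes Gad1 and Gad2. FPKM are reads per kilobase of exon and 1000000 reads of the cell. The reverse held in 4 LS cells, here called GABA-marked, and 1 LS cell had none of these 4 genes. Of the 12 NS cells, 2 were glutamate-marked, 6 were GABA-marked and 4 were unmarked. The NS label therefore does not stand for 1 kind of neuron, and group and class can hardly be told apart in these cells. The summed level of 6 markers of neurons in general had a median of 764 FPKM in LS cells (range 2.51 to 1410) and 24.2 FPKM in NS cells (range 0 to 1101), with at least 100 FPKM in 30 of 35 LS and 3 of 12 NS cells. Odorant, vomeronasal and taste receptor genes, which are genes of sensory cells, reached at least 10% of the level that an even spread of reads over all exons would give in 4 of 35 LS and 9 of 12 NS cells. No pair of the 63 cells had identical values.

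Reads of Nptx1 were present in 28 of 35 LS cells, or 80% (63.1 to 91.6% by the exact binomial 95% interval), and in 6 of 12 NS cells, or 50% (21.1 to 78.9%). Its level ran from 0 over a median of 71.5 to 441 FPKM in LS cells, and from 0 over 0.291 to 513 FPKM in NS cells. The LS range lay within the NS range, and the highest level of all 47 cells belonged to the NS cell NS_2. The mean was 114 ± 131 FPKM (SD, n = 35) in LS and 66.8 ± 146 FPKM (SD, n = 12) in NS cells, a log2 ratio of 0.78. This difference was smaller than the spread between cells in either group. NS_2 alone decided its size, because without this cell the log2 ratio was 2.12. NS_2 carried 501 reads of Nptx1, none of Nptx2, Nptxr, Fos or the 4 class markers, and 34.7 FPKM of the markers of neurons in general.

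Nptx2 was read in 21 of 35 LS cells (60%, 42.1 to 76.1%) and in 3 of 12 NS cells (25%, 5.49 to 57.2%). Its level ran from 0 over a median of 7.97 to 1100 FPKM in LS cells, and from 0 over 0 to 57.9 FPKM in NS cells. A small number of cells carried the LS mean: LS_3 had 1100, LS_31 856, LS_30 779 and LS_29 278 FPKM, and these 4 held 84.8% of the summed level. All 4 were glutamate-marked. The mean was 101 ± 260 FPKM in LS (n = 35) and 7.06 ± 17.1 FPKM in NS cells (n = 12), a log2 ratio of 3.85. This difference was smaller than the SD of LS cells. Without NS_7, the NS cell with most Nptx2, the ratio was 5.38, and without LS_3 it was 3.35. The coefficient of variation of Nptx2 over LS cells was 256%, higher than that of 98.4% of 3860 genes that averaged at least 10 FPKM and had reads in at least 50% of LS cells. By the same measure Nptx1 (114%) and Nptxr (101%) lay below the median gene, at 128%.

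Nptxr was read in 34 of 35 LS cells (97.1%, 85.1 to 99.9%) and in 3 of 12 NS cells (25%, 5.49 to 57.2%). In LS cells its level ran from 0 over a median of 103 to 573 FPKM. The 3 NS cells with reads had 20.9 FPKM (NS_4), 19.5 FPKM (NS_14) and 13.5 FPKM (NS_9), and the other NS cells had none. The LS range held these values, but 29 of 35 LS cells reached 10 FPKM. The reads behind the means numbered 36089 in LS and 160 in NS cells, and pooled per total they gave a log2 ratio of 4.81 (exact interval 4.58 to 5.04). The mean was 155 ± 157 FPKM (SD, n = 35) in LS and 4.49 ± 8.29 FPKM (SD, n = 12) in NS cells, a log2 ratio of 5.11. This difference between the means was smaller than the SD of LS cells. Pooling in the same way gave 1.46 (1.38 to 1.54) for Nptx1, from 30419 LS and 1374 NS reads, and 4.76 (4.39 to 5.16) for Nptx2, from 12910 LS and 59 NS reads.

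**Figure D1:**
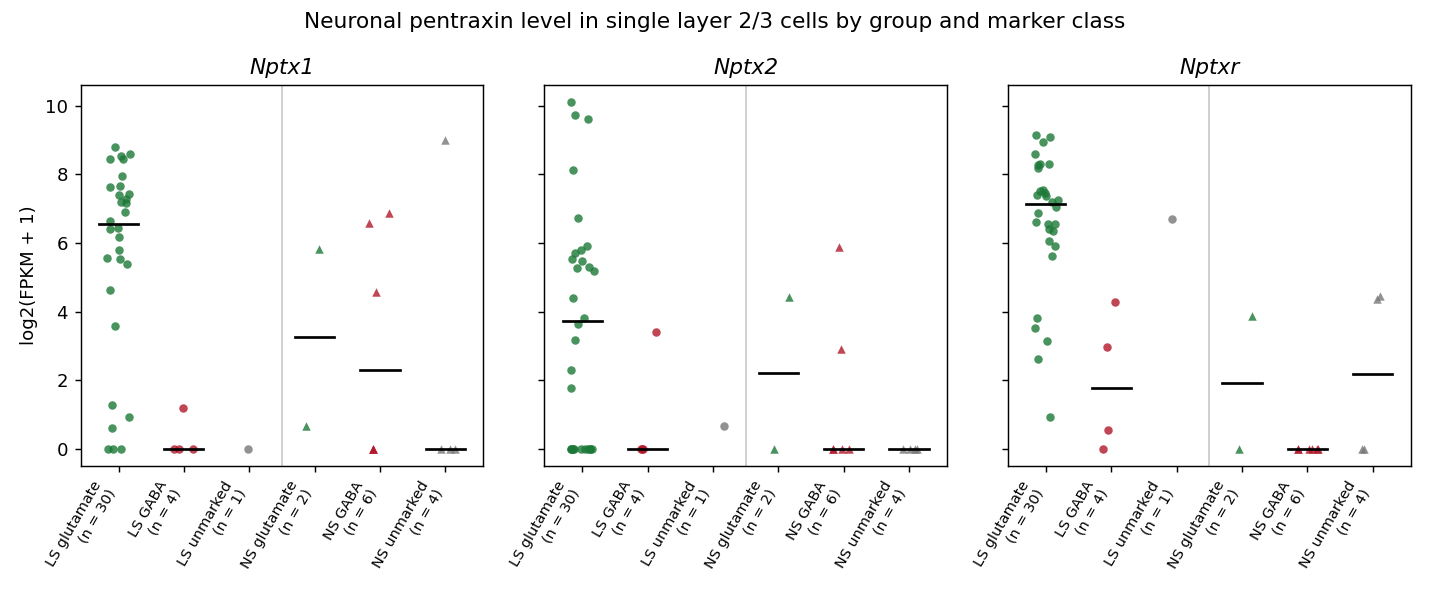
Level of each neuronal pentraxin in the 47 cells, as log2(FPKM + 1) on the vertical axis, by group and marker class on the horizontal axis. Each circle is an LS cell, each triangle an NS cell, and the bar is the median of the class where it holds more than 1 cell. In the glutamate-marked LS cells all 30 Nptxr values lie above 0, while 3 Nptx1 and 11 Nptx2 values lie at 0.

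Of the 3 members, 2 thus had a mean at least 2-fold higher in LS than in NS cells, against 33.8% of the 16760 genes that reached a mean of 1 FPKM in either group, and 38.9% were at least 2-fold higher in NS cells. The median log2 ratio of all these genes was -0.36. The study had already reported Nptxr as higher in LS cells of this series, so its place in this count is no independent support. Markers of neurons in general, depth and the receptor genes moved with the groups as given above, and their part in the difference was not tested. Where receptor genes stayed under 10% (31 LS and 3 NS cells), the log2 ratio was 4.01 for Nptx1, 5.35 for Nptx2 and 4.66 for Nptxr. Those 3 NS cells were NS_13, NS_14 and NS_16, and they held Nptx1 at 0, 0 and 22.8 FPKM, Nptx2 at 0, 0 and 6.46 FPKM and Nptxr at 0, 19.5 and 0 FPKM. Among cells with at least 3000 genes above 1 FPKM (33 LS, 6 NS), the ratio was 0.04 for Nptx1, 2.93 for Nptx2 and 6.16 for Nptxr. The size for Nptx1 was therefore set by which NS cells were counted, whereas Nptx2 and Nptxr were higher in LS cells in both subsets.

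**Figure D2:**
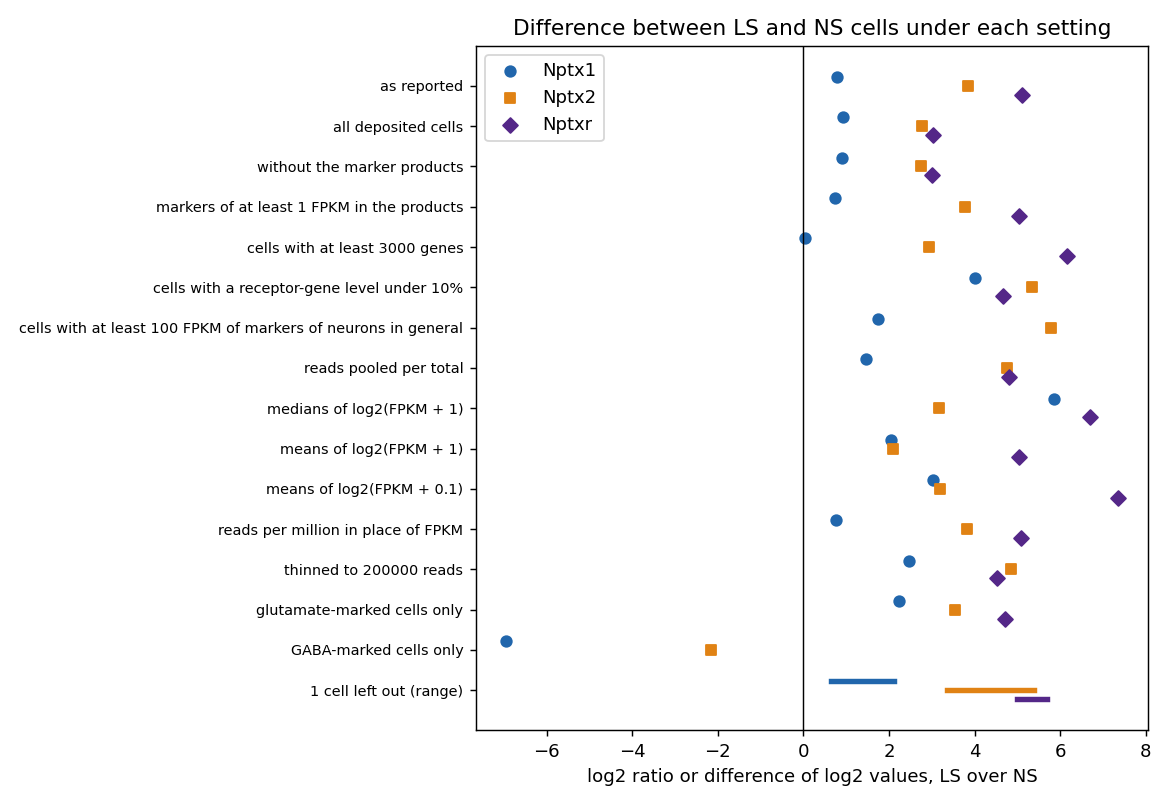
Log2 ratio of LS over NS (horizontal axis, or the difference of log2 values where a setting uses them) for each member under each setting (vertical axis), with the range over all cells left out in turn as a bar. Values right of 0 are higher in LS cells. All Nptxr points lie right of 0, up to 7.35, and Nptx1 and Nptx2 lie left of 0 among GABA-marked cells, where Nptxr has no NS read and no point, as among cells rich in markers of neurons in general.

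By marker class, each of the 3 members had a higher mean in glutamate-marked than in GABA-marked LS cells. The class was weak in some glutamate-marked cells. LS_4 and LS_44 counted as GABA-marked by wider lists of class markers. LS_34 had 243 FPKM of Pvalb, the parvalbumin gene, with 36.5 FPKM of Slc17a7 and no Neurod2. Nptxr was at 0.886 FPKM in LS_4, 7.83 in LS_44 and 5.08 in LS_34. In the 30 glutamate-marked LS cells Nptxr averaged 177 ± 159 FPKM (SD), Nptx1 133 ± 132 FPKM and Nptx2 118 ± 278 FPKM. Nptxr had reads in 30 of these cells, Nptx1 in 27 and Nptx2 in 19. The lowest, median and highest levels were 0.886, 139 and 573 FPKM for Nptxr, 0, 92.3 and 441 FPKM for Nptx1, and 0, 12.2 and 1100 FPKM for Nptx2. On this scale per length, Nptxr came first, Nptx1 second and Nptx2 last by the mean and by the median, but the means of neighbours in this order differed by less than the SD of either gene. Compared inside each cell, Nptxr was above Nptx1 in 19 of 30 cells and above Nptx2 in 25, and Nptx1 was above Nptx2 in 21. By mean FPKM over these cells the 3 genes ranked 207, 304 and 350 among the 20179 genes.

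The 4 GABA-marked LS cells held little of any member. Nptxr was at 18.3 FPKM in LS_14, 6.82 in LS_9, 0.470 in LS_15 and 0 in LS_39. Nptx1 was at 1.27 FPKM (3 reads) and Nptx2 at 9.56 FPKM (11 reads) in LS_9, and both were at 0 in LS_14, LS_15 and LS_39. LS_9 was also the cell of the 4 with the highest receptor-gene level, 34.4%. Vip, which marks one kind of interneuron, was read in LS_9 (36.1 FPKM), LS_15 (5266 FPKM) and LS_39 (211 FPKM), and neither Pvalb nor Sst was read in any of the 4. The Nptxr range of these cells met the lower end of the glutamate-marked range, and 27 of the 30 glutamate-marked cells were at 10 FPKM or more.

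All 3 members had a mean at least 2-fold higher in glutamate-marked than in GABA-marked LS cells, as had 46.2% of the 14454 genes tested. The log2 ratio of mean FPKM was 4.79 for Nptxr, from 35549 and 174 reads. Without LS_14 it was 6.18. For Nptx1 and Nptx2 the ratio of mean FPKM was 8.72 and 5.63. Both rest on the reads of LS_9, and with the wider marker lists (28 and 6 cells) the ratio of Nptx1 was 3.12. From reads pooled per total the ratio was 10.31 (8.77 to 12.59) for Nptx1 and 7.20 (6.36 to 8.20) for Nptx2. In the other 3 GABA-marked cells both genes had no reads at all. Median depth was 902997 reads in glutamate-marked and 1120560 reads in GABA-marked LS cells. Other markers moved with the class: the summed level of markers of neurons in general had a median of 799.8 FPKM (2.51 to 1410) in glutamate-marked and 276 FPKM (5.82 to 864) in GABA-marked LS cells, that of 6 astrocyte markers 72.0 (0 to 1249) and 225 FPKM (81.6 to 489), and that of 5 microglia markers 90.7 (0 to 1279) and 451 FPKM (45.9 to 1131). Their part in the difference was not tested.

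The NS cells did not follow the same division for the secreted members. Of the 6 GABA-marked NS cells none had a read of Nptxr, which leaves a share of up to 45.9%. Nptx1 was nevertheless at 115 FPKM in NS_7, 94.5 FPKM in NS_12 and 22.8 FPKM in NS_16, and Nptx2 at 57.9 FPKM in NS_7 and 6.46 FPKM in NS_16. These 3 cells differed in their markers: NS_16 had 9164 FPKM of Sst, which marks another kind of interneuron, NS_12 had 120 FPKM of Gad1 and 327 FPKM of Gad2, and NS_7 had 18.6 FPKM of Gad1 alone. Their receptor-gene levels were 2.93% (NS_16), 15.2% (NS_12) and 102% (NS_7). Among GABA-marked cells the means of Nptx1 (0.317 FPKM in 4 LS, 38.8 FPKM in 6 NS cells) and Nptx2 (2.39 and 10.7 FPKM) were thus higher in NS cells, with log2 ratios of LS over NS of -6.94 and -2.17.

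Neither of the glutamate-marked NS cells had all 3 members. NS_9 had 56.0 FPKM of Nptx1, 13.5 FPKM of Nptxr and no Nptx2, and NS_8 had 20.4 FPKM of Nptx2, a single read of Nptx1 and no Nptxr. The class of both was weak: NS_8 had 28.03 FPKM of Neurod2 but no Slc17a7, with 6.36 FPKM of Gad1, 13.4 FPKM of Gad2 and 177 FPKM of Sst, and NS_9 had 1.36 FPKM of Slc17a7, 1.91 FPKM of Neurod2 and 0.340 FPKM of Gad2. With the wider marker lists both counted as GABA-marked, and their receptor-gene levels were 120% and 52.3%. Excitatory NS neurons are therefore hardly represented. Between glutamate-marked cells (30 LS and these 2 NS), the log2 ratio of LS over NS was 2.24 for Nptx1, 3.54 for Nptx2 and 4.70 for Nptxr. Of the 4 unmarked NS cells, NS_4 and NS_14 had Nptxr alone, NS_2 had Nptx1 alone and NS_15 had none. NS_14 was also the NS cell with Pvalb, at 353 FPKM.

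All 3 members were read together in 18 of 35 LS cells, a share of 51.4% (33.99 to 68.6%), and in none of the 12 NS cells, which leaves a share of up to 26.5%. Of the other LS cells, 10 had Nptx1 with Nptxr, 3 had Nptx2 with Nptxr, 3 had Nptxr alone and LS_39 had none. No LS cell had a secreted member without Nptxr (0 of 35). Nptxr was read in 34 of 35 LS cells, so only LS_39 could have been such a cell. This count therefore cannot show whether the secreted members go with Nptxr. Of the 12 NS cells, 3 had Nptx1 with Nptx2, 2 had Nptx1 alone, 2 had Nptxr alone, 1 had Nptx1 with Nptxr and 4 had none. In 5 of the 6 NS cells with Nptx1 or Nptx2, Nptxr was without a read, and it was read in only 3 of all 12 NS cells. A read of Nptxr weighed 1.03 FPKM in the shallowest of these cells, NS_2, so levels of Nptxr below that were not detectable there. This weight does not cover transcripts lost before sequencing. NS_17, which was left out here for its joint excitatory and inhibitory markers, had all 3 members, with 46.8 FPKM of Nptx1, 128 FPKM of Nptx2 and 204 FPKM of Nptxr.

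**Figure D3:**
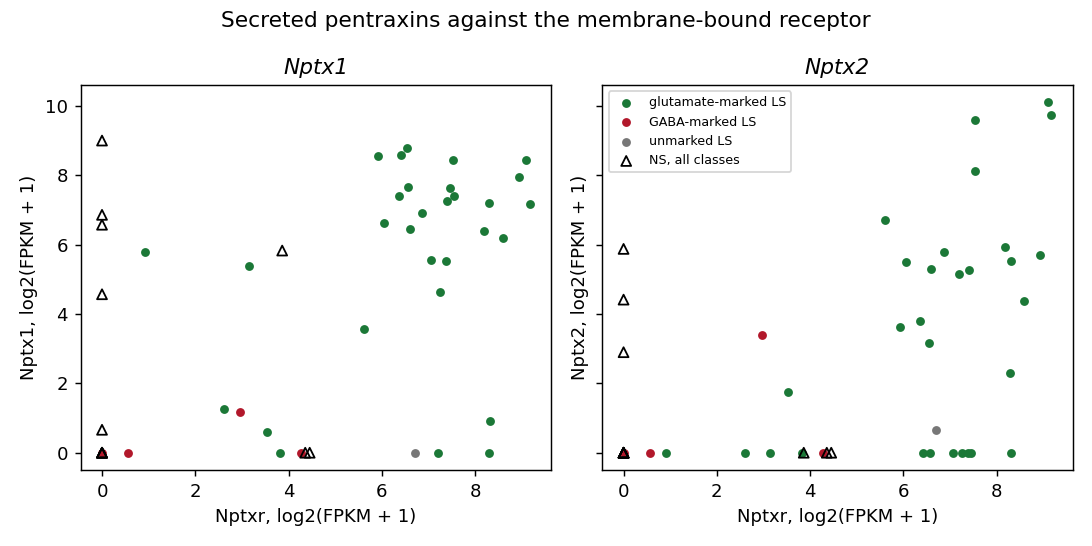
Nptx1 (left) and Nptx2 (right) on the vertical axis against Nptxr on the horizontal axis, all as log2(FPKM + 1), in 35 LS cells (filled, coloured by marker class) and 12 NS cells (open triangles). All LS cells except LS_39, which has no member, lie right of 0 on the Nptxr axis, and 5 NS cells lie above 0 with Nptxr at 0.

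Over the 35 LS cells, Nptx2 and Nptxr had a Spearman correlation of 0.53, Nptx1 and Nptxr of 0.38 and Nptx1 and Nptx2 of 0.33. Within the 30 glutamate-marked LS cells the values were 0.49, 0.21 and 0.23, so that only Nptx2 with Nptxr stayed above 0.3 in both sets. These are descriptions without a test, because cells share mice that are not named, and they also share the number of genes found in a cell, which correlated with Nptx1 (0.38), Nptx2 (0.35) and Nptxr (0.12). Given the number of genes, the 3 correlations were 0.52, 0.36 and 0.23.

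Against Fos, the members differed from each other in LS cells. Fos ranged from 0 over a median of 152 to 12613 FPKM. The Spearman correlation with Fos was -0.16 for Nptx1, -0.06 for Nptx2 and -0.47 for Nptxr over 35 LS cells. Over the 30 glutamate-marked LS cells it was 0.06, 0.11 and -0.47. Of the 3859 genes compared, 9.43% had a correlation with Fos of at least 0.3 and 18.4% one of at most -0.3, and Nptxr was the only member beyond either limit. Nptx2, the member known as an activity-regulated gene, thus had a rank correlation with Fos close to 0 in these cells.

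Single cells at the ends of Fos varied. At the upper end of Fos, the GABA-marked cells LS_39 (12613 FPKM of Fos) and LS_15 (6175 FPKM) had Nptxr at 0 and 0.470 FPKM. The glutamate-marked cell LS_42 (1998 FPKM) had 168 FPKM and the unmarked cell LS_43 (1555 FPKM) had 103 FPKM, both at the median of LS cells or above. Next by Fos came the glutamate-marked cells LS_13 (1516 FPKM) and LS_44 (1375 FPKM), with Nptxr at 13.1 and 7.83 FPKM. LS_39, LS_43 and LS_13 had only 5.82, 2.80 and 2.51 FPKM of the markers of neurons in general. At the lower end, the glutamate-marked cells LS_23, LS_24, LS_26 and LS_35 had no Fos read and Nptxr at 383, 488, 151 and 165 FPKM, and the GABA-marked cell LS_9 had no Fos read and 6.82 FPKM. The Nptx2 values of the first 4 were 19.9, 51.0, 0 and 0 FPKM. The 4 cells with most Nptx2 had intermediate Fos, at 315 FPKM in LS_3, 39.96 in LS_31, 475 in LS_30 and 219 in LS_29.

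Other measures moved with Fos and Nptxr as well. Fos correlated at -0.48 with Slc17a7 and at -0.52 with the markers of neurons in general, while Nptxr correlated at 0.67 and 0.66 with them. With the markers of neurons in general held constant, a setting chosen after the data were seen, the correlation of Nptxr with Fos was -0.20. With the mean of the 8 other immediate-early genes in place of Fos it was -0.28. The 5 LS cells without a Fos read tied as the farthest from the median of Fos, and leaving out 2 of them gave -0.57 to -0.40 over the 10 possible pairs. Depth went little with either gene, at 0.12 for Fos and -0.07 for Nptxr.

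**Figure D4:**
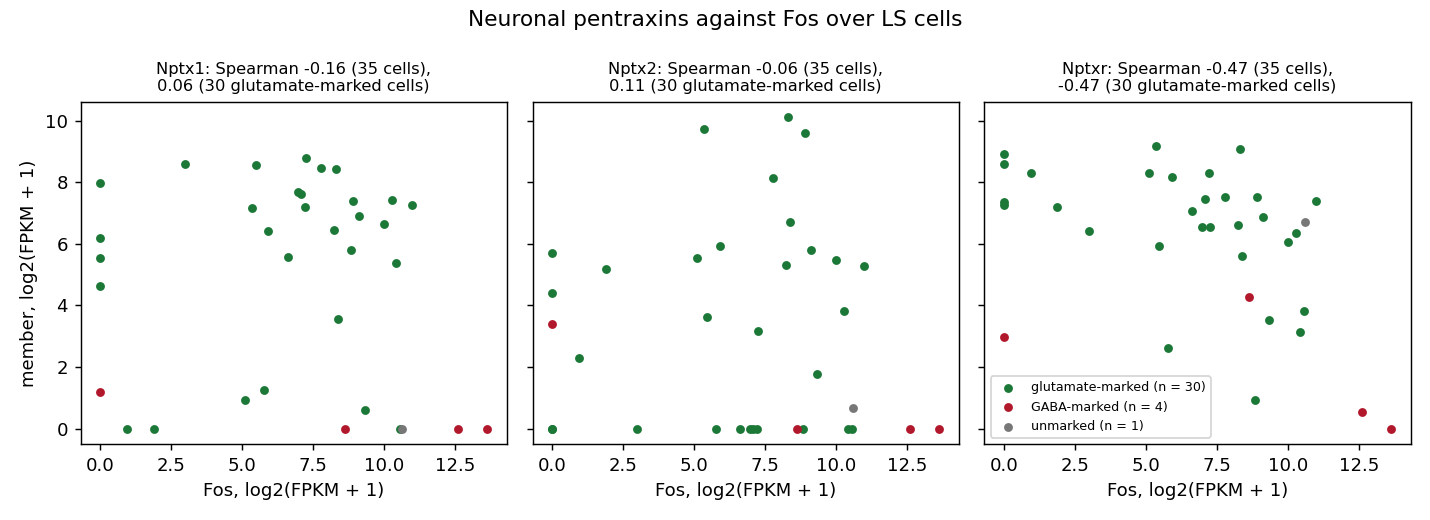
Level of each member (vertical axis) against Fos (horizontal axis) over 35 LS cells, both as log2(FPKM + 1), coloured by marker class. The GABA-marked cells with most Fos lie at or near 0 for all members, and the Spearman correlation is -0.16 for Nptx1, -0.06 for Nptx2 and -0.47 for Nptxr.

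The members were then set beside 2 lists of activity-regulated genes. Genes with a mean of at least 10 FPKM and reads in at least 50% of LS cells were compared, and a correlation of at least 0.3 was counted, a limit set after the data were seen. Of the 5 late activity-regulated genes that qualified, all 5 reached 0.3 with Nptx2, as did 14.5% of all 3859 genes. These were Bdnf, the neurotrophin (0.74), Nrn1, which encodes neuritin (0.58), the secretory granule protein Scg2 (0.53), Rasgrp1, a Ras exchange factor (0.50), and the neuropeptide precursor Vgf (0.47). All 5 did so over glutamate-marked LS cells as well, at 0.43 to 0.75. The rest of the 9 late genes, which did not qualify, were mixed. Homer1 and Inhba were at 0.39 and 0.55 with Nptx2 over LS cells, and Pcsk1 and Gpr3 both at 0.23. Of the 7 immediate-early genes that qualified (Fos, Fosb, Junb, Egr1, Nr4a1, Ier2 and Dusp1), none reached 0.3 with Nptx2, at -0.20 to 0.05. The 2 that did not qualify, Arc (read in 11 of 35 LS cells) and Npas4 (8 of 35), were at 0.38 and 0.32 with Nptx2. Nptx2 also correlated at 0.33 with the markers of neurons in general, 0.35 with the number of genes and 0.18 with Slc17a7. Their part in these values was not tested.

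The same 5 late genes reached 0.3 with Nptxr too, at 0.32 to 0.84, against 25.6% of all genes. With Nptx1, 3 of 5 did, at 0.39 to 0.44 for Bdnf, Nrn1 and Rasgrp1, against 27.6% of all genes. Slc17a7 and the markers of neurons in general also correlated with Nptxr (0.67 and 0.66) and with Nptx1 (0.58 and 0.41). Their part in these values was not tested. Over glutamate-marked LS cells all 5 late genes reached 0.3 with Nptxr, at 0.39 to 0.82, but 1 of 5 with Nptx1, at 0.16 to 0.32. Of the late genes that did not qualify, Homer1 was at 0.48 with Nptxr over LS cells. Inhba, Pcsk1 and Gpr3 stayed below 0.3 with it, at 0.24, 0.26 and 0.07. The 7 qualifying immediate-early genes lay at -0.27 to -0.0037 with Nptx1 and at -0.53 to -0.13 with Nptxr, where 5 of 7 were at or below -0.3. The share of all genes at or below -0.3 with Nptxr was not counted, so this number has no background to stand against. Arc was at 0.53 with Nptx1 and 0.24 with Nptxr, and Npas4 at 0.27 and 0.39. None of the 5 qualifying late genes reached 0.3 with Fos, at -0.45 to 0.07, whereas the 6 other immediate-early genes that qualified did, at 0.52 to 0.86. Arc and Npas4 lay at 0.06 and 0.02 with Fos.

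**Figure D5:**
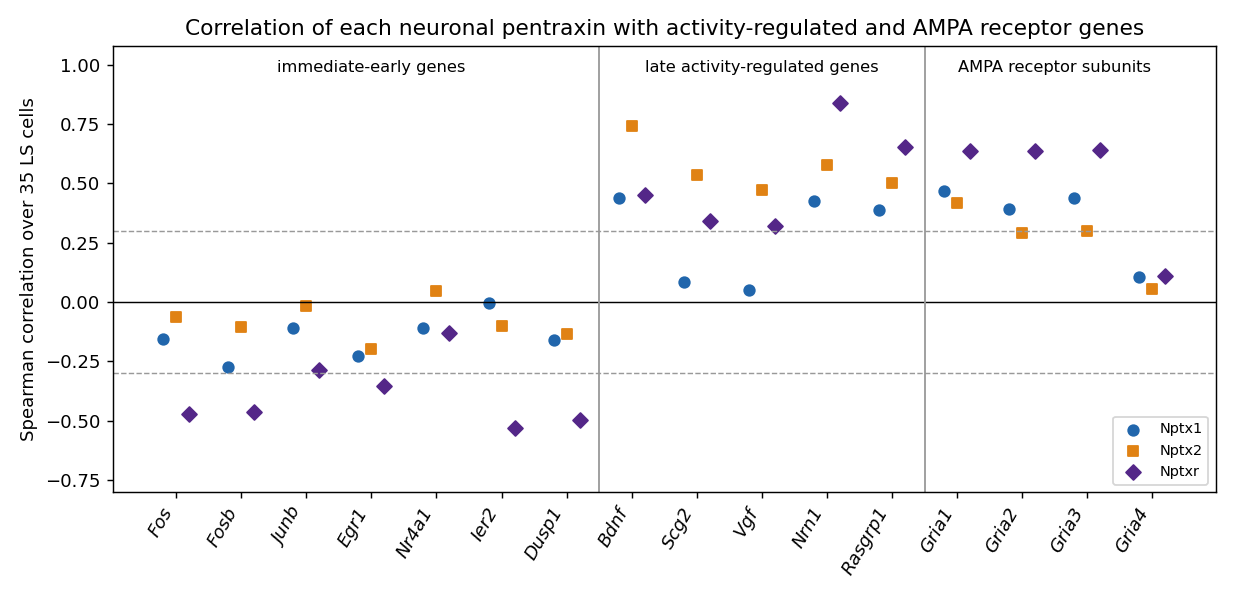
Spearman correlation over 35 LS cells (vertical axis) of each neuronal pentraxin with the qualifying immediate-early genes, late activity-regulated genes and AMPA receptor subunits (horizontal axis). Dashed lines mark 0.3 and -0.3. All Nptx2 and Nptxr points of the late genes lie above the upper line, and no point of the immediate-early genes does.

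The AMPA receptor subunits, the binding partners of the complexes, went with Nptxr for 3 of the 4 genes. Gria1, Gria2 and Gria3 each correlated at 0.64 with Nptxr over LS cells and at 0.53 to 0.59 over glutamate-marked LS cells, and Gria4 at 0.11 and 0.16. Of all genes compared, 25.6% reached 0.3 with Nptxr over LS cells. Slc17a7 (0.67) and the markers of neurons in general (0.66) correlated with Nptxr as highly as these 3 subunits, and their part was not tested. With Nptx1 the first 3 were at 0.39 to 0.47 and with Nptx2 at 0.29 to 0.42, and Gria4 lay at 0.11 and 0.05. Over glutamate-marked LS cells Gria1 alone reached 0.3 with these 2 members, at 0.31 and 0.40, while Gria2 and Gria3 lay at 0.16 and 0.18 with Nptx1 and at 0.19 and 0.16 with Nptx2. Gria4 differed from the others by class too: it averaged 22.2 ± 31.99 FPKM in glutamate-marked and 26.8 ± 40.8 FPKM in GABA-marked LS cells, while Gria3 averaged 26.6 ± 20.9 and 0.0559 ± 0.112 FPKM.

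Ranked over all 3859 genes, those whose pattern over LS cells was nearest to Nptxr included Nrn1 (0.84), Lamp5 (0.82), Lingo1 (0.77) and Cnksr2 (0.75). Nearest to Nptx2 were Prmt8 (0.76), Bdnf (0.74), Sorcs3 (0.72), Rimbp2 (0.72) and Fam135a (0.70). Nearest to Nptx1 were Tesc (0.75), Lancl2 (0.75), Baiap2 (0.73), Rps6ka2 (0.73) and Soga3 (0.71). The genes named for the 3 members did not overlap, but so few names out of 3859 genes would seldom overlap in any case. The members themselves were not among each other's nearest genes, with Nptxr ranking 55 for Nptx2 and 629 for Nptx1, and Nptx2 ranking 884 for Nptx1. Nrn1 averaged 73.4 ± 89.5 FPKM in glutamate-marked LS cells and had no read in the 4 GABA-marked ones, and Bdnf averaged 31.3 ± 102 and 0.0395 ± 0.0789 FPKM.

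Related genes gave a mixed picture between LS and NS cells, and none of these counts had a test. They stand against 33.8% of all genes at least 2-fold higher in LS cells, 38.9% in NS cells and a median log2 ratio of -0.36. Of the 4 AMPA receptor subunits, Gria2 (28.9 ± 23.7 FPKM in LS, 5.09 ± 7.82 in NS cells) and Gria3 (22.8 ± 21.5 and 4.65 ± 10.9 FPKM) were at least 2-fold higher in LS cells. Gria1 had a higher mean in NS cells (55.6 ± 180 FPKM in 4 of 12 cells with reads) than in LS cells (24.4 ± 22.3 FPKM, 34 of 35). Adam17, the protease that sheds Nptxr, was read in 12 of 35 LS cells, at 2.79 ± 6.57 FPKM over all of them, and in 1 of 12 NS cells. Of 9 late activity-regulated genes 6 were at least 2-fold higher in LS cells and 1, Pcsk1, in NS cells, with a median log2 ratio of 1.69. Of 9 immediate-early genes 6 were higher in LS and none in NS cells, with a median of 1.58. Of 12 secreted synaptic organizers tested, such as cerebellins and C1q-like proteins, 6 were higher in LS and 3 in NS cells. Of 7 perineuronal net genes 1 was higher in LS and 3 in NS cells. The other pentraxins, which are proteins of innate immunity, were read in few cells. Crp averaged 0.804 ± 4.75 FPKM in LS (1 of 35 cells with reads) and 15.4 ± 31.4 FPKM in NS cells (3 of 12), and Ptx3 2.76 ± 13.7 (4 of 35) and 40.8 ± 136 FPKM (3 of 12), both at least 2-fold higher in NS cells. Ptx4 was read in 3 LS cells and no NS cell.

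Between the classes of LS cells, AMPA receptor subunits were higher in glutamate-marked cells for 3 of 4 genes and late activity-regulated genes for 5 of 9, against 46.2% of all genes tested, so that the late genes lay near the background. In GABA-marked cells 3 of the 9 late genes were higher. Immediate-early genes were divided, with 5 of 9 (Fos, Fosb, Junb, Egr1 and Ier2) at least 2-fold higher in GABA-marked LS cells, against 23.2% of all genes tested. Another 2, Arc and Npas4, were at least 2-fold higher in glutamate-marked LS cells. They averaged 24.1 ± 45.5 and 13.3 ± 44.7 FPKM there and had no read in the GABA-marked ones. Fos itself averaged 4796 ± 5927 FPKM in the 4 GABA-marked and 377 ± 527 FPKM in the 30 glutamate-marked LS cells, a difference within the spread of the former. Of these 4 GABA-marked cells, LS_39, LS_15 and LS_14 had Fos at 12613, 6175 and 394 FPKM and no read of Nptx1 or Nptx2. LS_9 had no Fos read, 3 reads of Nptx1 and 11 of Nptx2, at a receptor-gene level of 34.4%. LS_39 had only 5.82 FPKM of the markers of neurons in general. With 4 cells, no relation of Fos to the secreted members can be read from this.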

How the data were processed

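Single-cell Smart-seq2 libraries of 46 LS and 17 NS cells were examined. The authors trimmed the reads with AfterQC, aligned them to GRCm38 with STAR 2.5.3a, counted them per gene with featureCounts and deposited FPKM values made with scater. Genes that never reached 1 FPKM and non-coding genes had been dropped by them. Of 20183 rows, 4 with a repeated name were left out.

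The deposited FPKM are whole multiples of the worth of 1 read in each cell, which gave back the reads. Exon lengths were those of GENCODE M21 for 12092 genes, were solved from the values for 6393 and stayed unsolved for 1694 (reads then estimated). Of values under 200 reads, 99.97% were whole within 0.01 reads. The procedure and the fold rule were tested on simulated data of 19880 genes in 47 cells, where all 200 planted genes were called. No rate of false calls was given for the simulated data. The test therefore cannot show how often the fold rule calls genes wrongly in the real cells.

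The filters that the study states were applied to the deposited values and removed 16 cells: 2 of low cDNA by name, 1 with fewer than 1000 genes above 1 FPKM, 10 with astrocyte markers, 1 with oligodendrocyte markers and 2 with excitatory and inhibitory markers together. No cell exceeded the limit of 25% mitochondrial reads (highest 12.1%). The study removed fewer cells, so the cells kept differ from its own. The labels give no mouse, date or batch, so no test between groups was possible and batches could not be examined. Means of FPKM with the SD between cells, exact Poisson and binomial 95% intervals, and Spearman correlations over cells are given. A gene counted as higher in a group at a mean of at least 2-fold, where either mean reached 1 FPKM. The genes named are the members, the members of the lists, and the 5 genes nearest to each member by Spearman correlation, of which 1 is not reported here. The members and lists were chosen with earlier results of these data known. Alternatives covered the cells kept, the class rule, the summary over cells, a pseudocount of 0.1 in place of 1, CPM in place of FPKM, thinning to 200000 reads and each cell left out. The software was scipy 1.17.1, pandas 2.3.3 and numpy 2.4.6 under Python 3.11.15, and the seed was 11.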

Additional observations from a re-analysis of the deposited data

Results flagged for a closer look

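In marker classes of 4 to 6 cells, a single cell stood far from the others in 4 of the 7 sets of values examined. The limit used is made for normally distributed values, so no rate of chance flags can be given here. LS_9 was the only GABA-marked LS cell with Nptx1 (1.27 FPKM, 3 reads) and Nptx2 (9.56 FPKM, 11 reads), the other 3 being at 0. NS_7 had 57.9 FPKM of Nptx2 among the 6 GABA-marked NS cells, where the next cell had 6.46 FPKM. NS_2 had 513 FPKM of Nptx1 among the 4 unmarked NS cells, the other 3 being at 0. Most values in these classes were 0, so any cell with reads stands apart. The receptor-gene levels of LS_9, NS_7 and NS_2 were 34.4%, 102% and 33.8%, and their part in these values was not tested.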

How the results depend on the processing

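Of 179 values from alternative settings, 162 stayed within a limit that differed by kind of result. For ratios it was the SD of log2(FPKM + 1) between cells, and for shares the exact interval. For correlations it was the standard error after Fisher's transformation. The limit for ratios was wide, so that the Nptx1 ratios of 4.01 (low receptor-gene level) and 0.04 (at least 3000 genes) also counted as within it. Among GABA-marked cells only, the log2 ratio of LS over NS turned to -6.94 for Nptx1 and -2.17 for Nptx2, and the medians of log2(FPKM + 1) gave 5.85 for Nptx1. For Nptx1, the ratio of glutamate-marked over GABA-marked LS cells was 5.32 from means of log2(FPKM + 1) and 3.12 with the wider marker lists. Shares of cells moved to 83.3% for Nptx1 in NS and 100% for Nptxr in LS cells with at least 3000 genes, and, in cells with at least 100 FPKM of markers of neurons in general (a setting added later, with the data in view), to 100% for Nptxr in LS and 0% in NS cells. The correlation with Fos moved for Nptx1 to 0.055 in glutamate-marked cells, 0.025 with other immediate-early genes and 0.071 given markers of neurons in general, for Nptx2 to 0.13 given those markers, and for Nptxr to -0.28 and -0.20 under the latter 2 settings. Nptx1 with Nptxr was at 0.57 over all LS cells and 0.21 over glutamate-marked ones.

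With each cell left out in turn, the ratio of LS over NS ranged from 0.65 to 2.12 for Nptx1, 3.35 to 5.38 for Nptx2 and 4.98 to 5.69 for Nptxr, and the correlation of Nptxr with Fos from -0.56 to -0.42. The ratio between classes ranged from 4.37 to 6.18 for Nptxr. It had no value for Nptx1 and Nptx2 without LS_9 or with only cells of low receptor-gene level, and the LS over NS ratio of Nptxr had none among GABA-marked cells or cells rich in markers of neurons in general, since 1 side was at 0. The causes were not tested. No paired analysis was possible because the results come from no test and the numbers of LS and NS cells name cells, not mice. Depth was lower in NS cells: with 200000 reads per cell, 8 NS cells were left, and Nptxr was read in 33 of 35 LS and 3 of 8 NS cells.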
